A study of Mus musculus with 22 samples.

Results

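The HoxC genes were followed cell type by cell type and day by day in mouse gastruloids, aggregates of embryonic stem cells that elongate and form tissues of the trunk and tail. Members were the rows of the count tables whose symbol was Hoxc4, Hoxc5, Hoxc6, Hoxc8, Hoxc9, Hoxc10, Hoxc11, Hoxc12 or Hoxc13, which are 9 of the 32285 genes counted. All samples came from wild-type E14Tg2A cells, an established mouse embryonic stem cell line, aggregated in N2B27 medium and given a pulse of CHIR99021, which blocks the kinase GSK3 and so switches on Wnt signalling. No group carried a mutation or another agent, so the groups differ in day of culture (3, 3.5, 4, 4.5 and 5) and in experiment. In MULTI-seq, lipid-anchored DNA barcodes mark the cells of each gastruloid before pooling, so that each gastruloid is a replicate. In MULTI-seq 3, day 3 had 24 gastruloids and each later day had 16. There were 24 day 5 gastruloids in MULTI-seq 1, and in MULTI-seq 2 there were 12 of day 4 and 12 of day 4.5. The lanes of MULTI-seq 3 came in separate sets, called pools here: day 3, days 3.5 and 4, and days 4.5 and 5. Their titles share 1 experiment, while the submitters' lane names give each set an experiment number of its own. The steps from day 3 to 3.5 and from day 4 to 4.5 go with a change of pool. The day cannot be told apart there from the pool or from a separate experiment. The lanes of MULTI-seq 2 labelled with days 3 and 3.5 had no cells in the submitters' final cell table and were not analysed here. Unlabelled 10X lanes of days 3 and 4 and one pool of MULTI-seq 2 carried no gastruloid calls and are given per lane. Representative gastruloids were picked by the submitters before dissociation, all from 1 cell line.

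Hox genes code for homeodomain transcription factors that give the axial tissues their position from neck to tail. Within a cluster, genes at the 3′ end are switched on earlier and further forward than genes at the 5′ end, so that the order along the chromosome runs with the order in time and space. In the mouse, Hoxc4, Hoxc5 and Hoxc6 belong to the neck and front of the trunk, Hoxc8 and Hoxc9 to the thorax, Hoxc10 and Hoxc11 to the lumbar and sacral levels, and Hoxc12 and Hoxc13 to the tail. Hoxc13 is also known from hair and nails.

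The cluster lies on the forward strand of chromosome 15 of the mm10 build, and in the GENCODE annotation it runs from Hoxc13, at bases 102921103 to 102928814, to Hoxc4, at bases 103018934 to 103036852. The annotated Hoxc5 model spans bases 102967443 to 103017429 and overlaps Hoxc10, Hoxc9, Hoxc8 and Hoxc6, so its reads may be split with those genes and its counts are uncertain. All members hold a homeobox, the 180 bases that code for the 60 residues of the DNA-binding homeodomain, and it is shown for the 4 members on which the results turn, so that their kinship can be seen. Sequences were read from GENCODE protein-coding transcripts and placed on mm10 through the gene models, forward strand, 5′ to 3′. Capitals mark the codons of residues that differ from Hoxc8, the most abundant member.
Hoxc6: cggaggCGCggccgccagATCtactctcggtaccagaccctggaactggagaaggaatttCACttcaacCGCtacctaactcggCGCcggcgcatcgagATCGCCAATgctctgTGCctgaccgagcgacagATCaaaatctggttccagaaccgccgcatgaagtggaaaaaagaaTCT
Hoxc8: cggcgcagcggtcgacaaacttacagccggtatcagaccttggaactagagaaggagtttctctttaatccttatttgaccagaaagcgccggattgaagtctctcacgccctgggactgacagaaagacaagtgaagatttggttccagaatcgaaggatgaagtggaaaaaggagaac
Hoxc9: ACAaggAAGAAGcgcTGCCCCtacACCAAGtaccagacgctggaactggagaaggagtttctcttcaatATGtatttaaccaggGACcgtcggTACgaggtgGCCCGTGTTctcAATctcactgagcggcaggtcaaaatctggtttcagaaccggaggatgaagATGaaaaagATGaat
Hoxc10: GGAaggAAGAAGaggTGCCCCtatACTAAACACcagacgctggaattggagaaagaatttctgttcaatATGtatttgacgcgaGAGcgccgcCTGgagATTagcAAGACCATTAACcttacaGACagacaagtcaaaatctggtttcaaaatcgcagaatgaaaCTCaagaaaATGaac
The Hoxc6 homeobox is at chr15:103010754-103010933 in exon 2 of 2, that of Hoxc8 at chr15:102992571-102992750 in exon 2 of 2, that of Hoxc9 at chr15:102983930-102984109 in exon 3 of 3, and that of Hoxc10 at chr15:102970848-102971027 in exon 2 of 2. Of the 60 residues, 11 differ between Hoxc6 and Hoxc8, 16 between Hoxc9 and Hoxc8, and 19 between Hoxc10 and Hoxc8. Hoxc9 and Hoxc10, which belong to the family related to the fly gene Abdominal-B, differ from each other at 11 residues. The distance from Hoxc8 was 21 residues in Hoxc4, 19 in Hoxc5, 27 in Hoxc11 and in Hoxc12, and 33 in Hoxc13.

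Of the submitters' final cells, 77674 were found in the count matrices of 18 lanes, and 53730 carried the barcode of 1 of 136 gastruloids. Lanes held 30065021 to 238431052 UMIs, molecules counted once by their unique identifier, with medians of 8287 to 38443 UMIs per cell. Of 76935 cell barcodes, 732 occurred in more than 1 lane. Levels are counts scaled to CPM, the UMIs of a gene per 1000000 UMIs of the same cells, and are compared only within a gene. Cell types carry the submitters' cluster names. Marker lists were checked for the spinal cord types, NMPs, Early and Late Posterior PSM, Somites, Mature Somites and Caudal Epiblast. All their members were higher in the type than the median of the other types, except Pax1 in Somites. Other types, Head Mesoderm, Endothelium and Mature Endoderm among them, were not checked in this way. Those names came from clustering the same cells, so a difference in level between types is a description with no test, and day comparisons within a type are conditional on the naming.

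The 9 members fell into 6 that were counted often and 3 that were close to absent. Over all final cells there were 143590 UMIs of Hoxc8, 66436 of Hoxc6, 66202 of Hoxc9, 34254 of Hoxc4, 14574 of Hoxc10 and 9323 of Hoxc5. Hoxc8 was seen in 33.2% of cells and Hoxc10 in 6.53%. The members nearest the 5′ end gave 339 UMIs (Hoxc13), 35 (Hoxc11) and 5 (Hoxc12). Hotair, the long non-coding RNA transcribed from within the cluster, gave 2 UMIs.

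In whole gastruloids of MULTI-seq 3, the 6 abundant members were low at day 3 and were present in every gastruloid of days 4, 4.5 and 5. Hoxc8, a thoracic gene, had a lowest, median and highest level of 0, 1.68 and 6.93 CPM on day 3 (n = 24). Those levels were 11.4, 48.4 and 157.3 on day 3.5, then 4.61, 23.6 and 164.6 on day 4, then 43.7, 134.7 and 282.0 on day 4.5, and last 49.9, 100.7 and 161.3 (n = 16 a day). The day 3 gastruloids all lay below those of day 3.5, whereas the ranges of every later pair of neighbouring days overlapped. Hoxc10, which patterns lumbar levels, had mean levels of 0.157, 0.396 and 0.381 on days 3, 3.5 and 4, which then went to 3.84 ± 2.40 and 26.7 ± 18.2 (SD, n = 16 each). Its lowest, median and highest levels were 1.11, 3.17 and 8.96 at day 4.5 and 7.36, 21.5 and 76.2 at day 5, so the lowest day 5 gastruloids overlapped the highest of day 4.5. Hoxc9, the neighbour of Hoxc10, went from a mean of 1.23 at day 3 through 9.65, 7.95 and 63.1 ± 40.0 to 77.4 ± 33.4 (SD, n = 16) at day 5. Mean levels from day 3 to day 5 were 1.28, 14.5, 13.3, 47.1 and 62.5 for Hoxc6, 2.49, 13.8, 9.92, 21.0 and 24.9 for Hoxc4, and 1.07, 4.40, 2.97, 5.87 and 7.07 for Hoxc5.

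**Figure D1:**
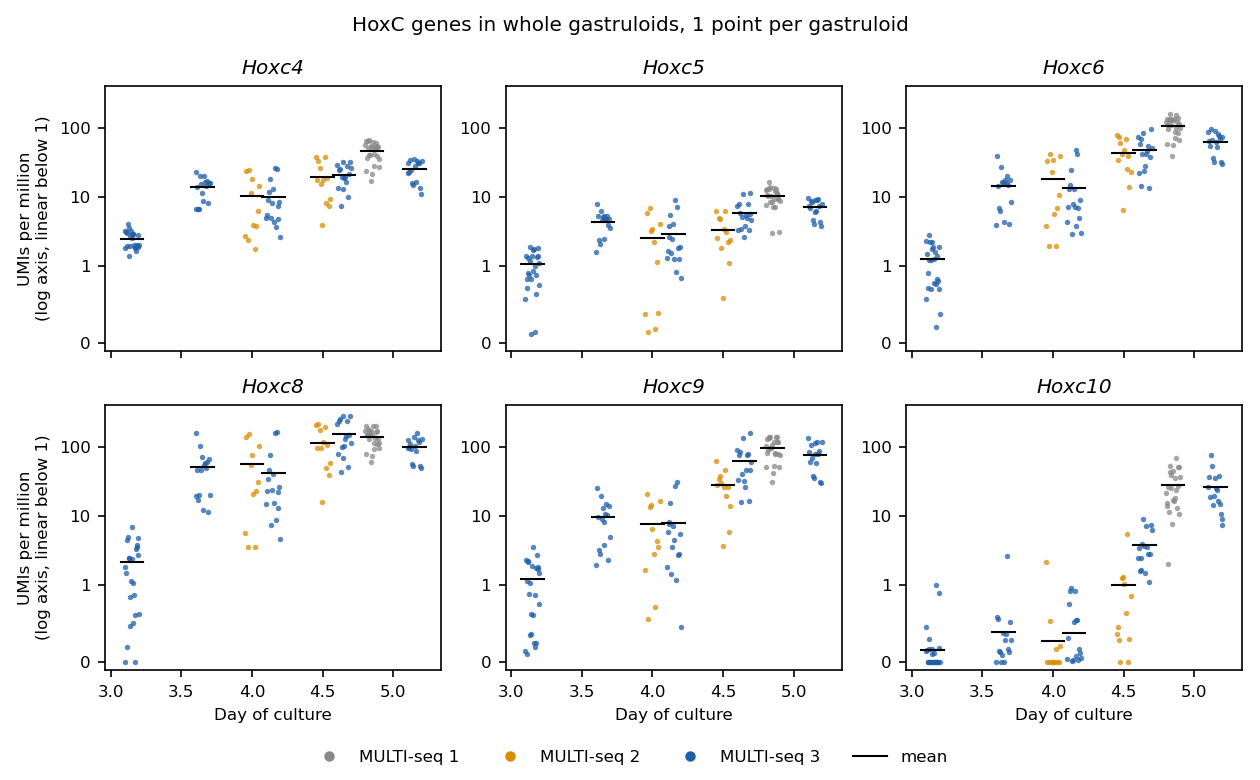
Level of each of the 6 abundant HoxC members in whole gastruloids, in CPM (axis logarithmic, linear below 1), against day of culture, with points as gastruloids coloured by experiment, shifted sideways for each experiment, and bars as means. Hoxc10 stays below 10 up to day 4.5 and lies between 7.36 and 76.2 at day 5 of MULTI-seq 3.

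A gene was tested where it reached the filter on low counts, which it can do through 1 of the groups alone. Such a gene is given as a description with no test. Counts of called members and listed genes take only genes that each group by itself would pass, a choice made after the values were seen. The shares of all genes called take every gene tested, so they follow a wider rule than the counts they stand beside. From day 3.5 to day 4 no member changed by edgeR's quasi-likelihood test with Benjamini-Hochberg adjustment over all genes (0 of 5 tested, 1 at an unadjusted p under 0.05, and 0 by DESeq2), while 60.4% of all genes tested were called. The medians of log2 fold changes were -0.38 for the members and about 0 for all genes. Hoxc5 came nearest, with a log2 fold change of -0.65 (adjusted p = 0.0558), and it was called without lane B (-0.75) or lane D (-0.74). For each of the 5 members, 13 of 16 day 4 gastruloids lay below the day 3.5 median. Over the same step the share of a gastruloid's cells in the 6 types that held most HoxC RNA (chosen after their levels were seen: Caudal Epiblast, Caudal Neurectoderm, NMPs, Early Spinal Cord, Late Spinal Cord and Late Posterior PSM) had medians that went from 42.5% to 18.1%. The part of that share in the whole-gastruloid levels was not tested, and in such sums fewer cells of a type and less RNA per cell cannot be told apart.

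From day 4.5 to day 5, Hoxc10 was the member that rose in whole gastruloids, by 2.75 ± 0.32 (SE) on the log2 scale (adjusted p = 9.50e-07, edgeR, n = 16 and 16), and all 16 day 5 gastruloids were above the day 4.5 median. It was 1 of 6 members tested, and 13.5% of all genes were called. Hoxc8 missed the threshold with a log2 fold change of -0.64 ± 0.24 (SE; adjusted p = 0.0715, edgeR), with 14 of 16 day 5 gastruloids below the day 4.5 median. Hoxc6, Hoxc9, Hoxc5 and Hoxc4 had log2 fold changes of 0.40, 0.28, 0.25 and 0.24, with adjusted p-values of 0.271 to 0.552 (edgeR). The members' median log2 fold change was 0.27. The median share of cells in the 6 types named above was 54.6% at day 4.5 and 51.2% at day 5.

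In MULTI-seq 2, Hoxc9 was higher at day 4.5 than at day 4, as a description. Its lowest, median and highest levels were 0.569, 4.42 and 20.7 at day 4 (n = 11) and 3.68, 27.3 and 63.4 at day 4.5 (n = 12), and 11 of 12 day 4.5 gastruloids were above the day 4 median. Only 8 of 11 day 4 gastruloids reached the filter's level of 1.80 CPM, too few to pass alone. Of the 3 members that each day alone would pass, 0 were called by edgeR and 0 by DESeq2 (2 at an unadjusted p under 0.05), with 7.36% of all genes called. These were Hoxc6, Hoxc8 and Hoxc4, with log2 fold changes of 1.29, 1.08 and 1.03 and adjusted p-values of 0.105, 0.243 and 0.175 (edgeR), and Hoxc6 was called without lane 2 (1.60).

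Experiments of the same day differed in some members. At day 4.5, Hoxc9 was higher in MULTI-seq 3 than in MULTI-seq 2, by 1.22 (adjusted p = 0.0079) on the log2 scale (edgeR), the 1 call among 4 members, where 42.5% of all genes were called in either direction. Hoxc10 had means of 1.00 CPM in MULTI-seq 2 and 3.84 in MULTI-seq 3, and Hoxc5 of 3.32 and 5.87, but neither reached the filter through MULTI-seq 2 alone, so these are descriptions. At day 4, 0 of 4 members were called between these experiments by edgeR, also 0 at an unadjusted p under 0.05 and 0 by DESeq2, with 46.1% of all genes called. At day 5, Hoxc4 and Hoxc6 were lower in MULTI-seq 3 than in MULTI-seq 1, with log2 fold changes of -0.65 (adjusted p = 0.000591) and -0.55 (adjusted p = 0.00226, edgeR), with 63.7% of all genes called. Hoxc10 was at 28.2 CPM on average in MULTI-seq 1 (lowest 2.01, median 24.8, highest 69.2, n = 24), with a log2 fold change of 0.14 between the experiments that was not called and was -0.092 when libraries were scaled by their totals alone. That scaling moved the median of all genes by -0.25 on the log2 scale and called Hoxc5 (-0.55) and Hoxc8 (-0.49) as well. Hoxc5, at -0.32 (adjusted p = 0.0522, edgeR), was also called without lane 2 (-0.33) or lane 3 (-0.35) of MULTI-seq 1. Each of these comparisons sets 1 pool of gastruloids against another, so experiment and pool cannot be told apart.

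The members varied widely among gastruloids of the same day. In MULTI-seq 3 at day 4, the highest Hoxc8 level was 35.7 times the lowest, and the coefficient of variation was 116%. The gastruloid at 164.6 CPM had 66.5% of its cells in the 6 types named above and 26.3% in Early Spinal Cord, whereas the gastruloid at 4.61 had 5.49% in those types and 0 in Early Spinal Cord. For Hoxc8 the spread was smaller within each caudal type measured, over the gastruloids with enough cells of that type. The coefficient of variation of Hoxc8 at day 4 was 22.5% in Caudal Epiblast (n = 15) and 14.8% in NMPs (n = 14). It was 16.5% in Early Spinal Cord (n = 5) and 45.5% in Late Posterior PSM (n = 14). The 116% is over all 16 gastruloids, so these spreads are not over the same sets. The gastruloid at 4.61 is not among the 5 of Early Spinal Cord. At day 5 the Hoxc8 value was 33.8% in whole gastruloids and 11.3% in Early Spinal Cord (n = 16 each). It was 46.3% in Somites (n = 12) and 84.6% in Mature Somites (n = 16). For Hoxc10 at day 5 it was 68.0% in whole gastruloids, 39.5% in NMPs and 52.3% in Early Spinal Cord (n = 16 each). In Late Spinal Cord it was 173% (n = 8). In MULTI-seq 1 the Hoxc10 values were 61.2% in whole gastruloids (n = 24), 40.0% in NMPs (n = 22), 60.9% in Early Spinal Cord (n = 23) and 111% in Late Spinal Cord (n = 15). The spread in Early Spinal Cord was thus close to that of whole gastruloids there. Shares of cells in the 6 types at the extremes of Hoxc8 are given for other days too. Those types were chosen for their HoxC levels, and the part of the shares in the spread was not tested. At day 3 the levels of 6.93 and 0 went with 6.52% and 1.33%, where the median over gastruloids was 6.40% and the highest share 17.3%. At day 3.5 the levels of 157.3 and 11.4 went with 77.3% and 17.4%. At day 4.5 the levels of 282.0 and 43.7 went with 87.4% and 20.6% of cells in the 6 types, and at day 5 the levels of 161.3 and 49.9 went with 75.9% and 21.0%. In MULTI-seq 2 at day 4, levels of 154.8 and 3.55 went with 86.9% and 11.3%.

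At day 5 of MULTI-seq 3 Hoxc8 was highest in NMPs, both spinal cord types and Late Posterior PSM, and was at or near 0 in Head Mesoderm and Endothelium. NMPs, the neuromesodermal progenitors of the tail end that give rise to spinal cord and trunk mesoderm, had the highest mean Hoxc8 level, at 256.4 CPM, and differed from the next type by more than 1 SD there. In MULTI-seq 1 it did not, with 262.6 ± 62.1 (SD, n = 22) in NMPs and 228.6 ± 37.4 (SD, n = 23) in Early Spinal Cord. Early Spinal Cord followed at 174.7, Late Posterior PSM at 168.7 and Late Spinal Cord at 155.1, and neighbours among these 3 did not differ beyond their spread. PSM is the presomitic mesoderm, from which somites bud. Levels then dropped to 36.1 in Late Anterior PSM, 25.5 in Somites, 22 in Notochord, 17.6 in Mature Somites, 8.2 in Late Neurectoderm and 6.0 in Mature Endoderm. Head Mesoderm was at 0.092, and Hoxc8 was listed at 0 in the 6 gastruloids with enough Endothelium.

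The distances between these types differed from gene to gene, while Late Posterior PSM was the lowest of the 4 for each gene that follows. Hoxc9 was level across Late Spinal Cord, NMPs and Early Spinal Cord, with medians of 172.2, 166.6 and 149.2, which did not differ beyond their spread, and then lower in Late Posterior PSM at 101.1. Hoxc6 was highest in NMPs and Early Spinal Cord, with medians of 149.5 and 134.8, and lower in Late Spinal Cord (92.2) and Late Posterior PSM (72.2). Hoxc4 had medians of 53.8 in Early Spinal Cord, 50.7 in NMPs, 38.5 in Late Spinal Cord and 28.4 in Late Posterior PSM. Hoxc10 had medians of 85.0 in Early Spinal Cord and 83.7 in NMPs, against 6.93 in Late Spinal Cord and 2.42 in Late Posterior PSM. Its means over gastruloids were 102.0, 93.3, 15.6 and 5.73, and under 0.5 in all other types with enough cells. The Late Spinal Cord mean rests on 1 gastruloid at 81.6, with the next at 14.6, and was 6.22 without it (n = 7). Day 5 of MULTI-seq 1 gave the same 4 types in Hoxc10, with means of 76.7, 75.5, 13.4 and 5.98. Hoxc9 had the same order of types there, with means of 163.1 in Early Spinal Cord, 153.2 in NMPs, 139.2 in Late Spinal Cord and 92.2 in Late Posterior PSM.

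**Figure D2:**
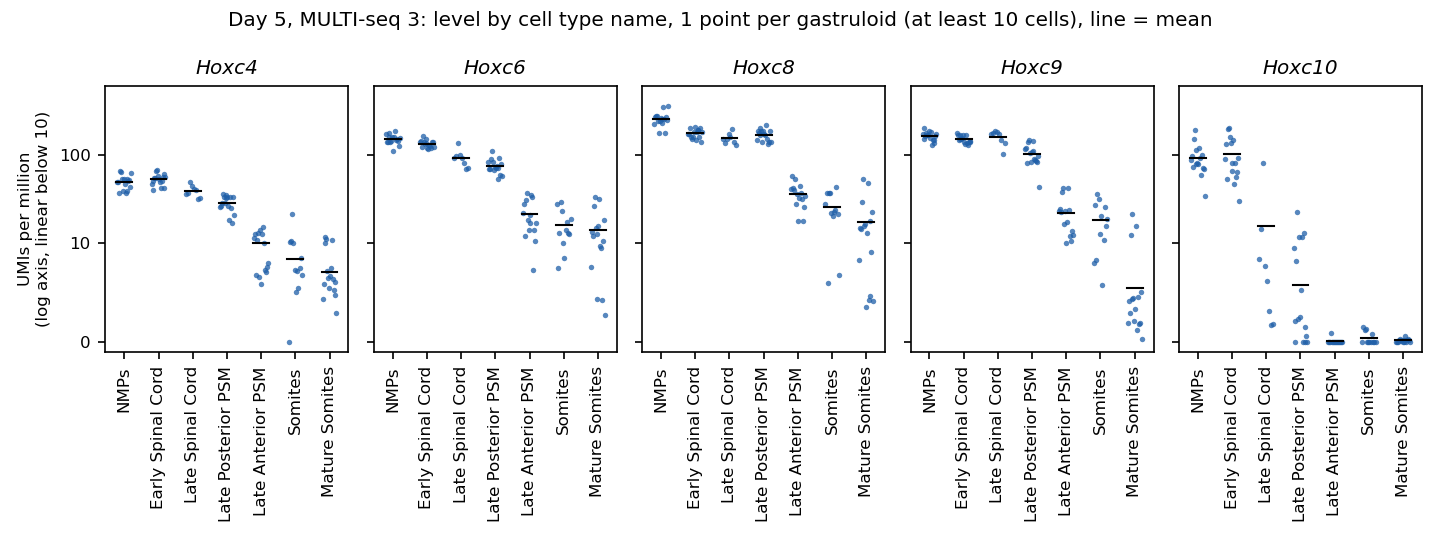
Levels of 5 HoxC members in 7 named cell types at day 5 of MULTI-seq 3, in CPM (axis logarithmic, linear below 10). Points are gastruloids and lines means; NMPs, Early Spinal Cord, Late Spinal Cord and Late Posterior PSM stand above the other types, and Hoxc10 is highest in Early Spinal Cord (mean 102.0) and NMPs (mean 93.3).

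Weighted by cell number, the spinal cord types held most of the Hoxc8 and Hoxc10 RNA. At day 5 of MULTI-seq 3, over cells with a gastruloid call, 31.2% of Hoxc8 UMIs were in Early Spinal Cord, 30.1% in Late Spinal Cord, 17.9% in NMPs, 12.8% in Late Posterior PSM and 4.73% in Mature Somites. Of Hoxc10 UMIs, 63.4% were in Early Spinal Cord, 26.2% in NMPs and 8.30% in Late Spinal Cord, which was 3.24% without the gastruloid at 81.6. At day 3, over all cells with or without a call, the few Hoxc8 UMIs were mostly in Caudal Neurectoderm (29.5%), Early Spinal Cord (28.3%) and Caudal Epiblast (27.7%). Caudal Epiblast, the progenitor layer at the back of the embryo, held 29.9% of Hoxc8 UMIs of called cells at day 3.5 with 17.5% of all UMIs, and Early Spinal Cord held 35.7% with 6.59%.

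Shares of cells gave the same 4 types. Each cell was thinned to 5000 UMIs so that depth was equal, which left out no cell of MULTI-seq 3. A Hoxc10 UMI was then found in 35.3% of NMPs (exact Clopper-Pearson 95% interval 32.1 to 38.6%) and 31.3% of Early Spinal Cord cells (29.2 to 33.5%), against 4.34% in Late Spinal Cord, 2.34% in Late Posterior PSM and 0.188% in Mature Somites. Without thinning these shares were 75.2%, 71.1%, 13.8%, 9.58% and 0.408%. Leaving out the Late Spinal Cord gastruloid at 81.6 gave 1.88% with thinning and 8.68% without it. Head Mesoderm, which forms ahead of the HoxC domain, served as background: 0 of its 247 cells had a Hoxc10 UMI after thinning, for which the exact interval reaches 1.48%, and 0.810% had one without thinning. Median depths were 28181 UMIs per cell in NMPs, 31353 in Early Spinal Cord and 26567 in Head Mesoderm. Hoxc8 was found in 66.5% of thinned NMPs (63.2 to 69.6%), 54.5% of Early Spinal Cord, 53.4% of Late Posterior PSM, 49.2% of Late Spinal Cord and 7.62% of Mature Somites, against 0.405% of Head Mesoderm. Without thinning it was found in 98.1% of NMPs and 0.810% of Head Mesoderm. These intervals cover counting error only.

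Within single types, some members rose from day 3.5 to day 4. In Caudal Epiblast, all 3 members that each day alone would pass were higher at day 4, where 21.2% of all genes were called. Hoxc8 went from 14.3, 72.7 and 160.2 (lowest, median and highest, n = 15) to 97.6, 159.5 and 231.8 (n = 15), with a log2 fold change of 0.85 (adjusted p = 6.04e-05, edgeR). Hoxc6 rose from a mean of 28.5 to 59.2 (log2 fold change 0.92, adjusted p = 4.71e-06, edgeR), and Hoxc4 from 28.1 to 34.7 (0.31, adjusted p = 0.00308, edgeR; 0.0622 without lane C). Hoxc5 had means of 9.36 and 11.6 and Hoxc9 of 15.2 and 22.1, as descriptions, since day 3.5 alone would not pass them.

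In Early Spinal Cord, 2 of 4 members tested rose from day 3.5 to day 4, where 2.80% of all genes were called. The 5 day 4 gastruloids had Hoxc6 levels of 124.9, 123.0, 102.6, 85.4 and 94.8, and the mean went from 60.8 (n = 10) to 106.1 (log2 fold change 0.75, adjusted p = 0.00153, edgeR). Their Hoxc4 levels were 51.5, 50.8, 63.3, 40.1 and 50.1, with a mean of 29.7 at day 3.5 and 51.2 at day 4 (log2 fold change 0.67, adjusted p = 0.00273, edgeR). Both calls held without each of the 5 day 4 gastruloids in turn, and DESeq2 gave Hoxc4 no adjusted p. Hoxc8 (0.32, adjusted p = 0.165) and Hoxc9 (0.36, adjusted p = 0.45) were not called by edgeR. Over the 11 settings tried, Hoxc8 was called in 1 and Hoxc9 in 0. In Early Posterior PSM, where 38.3% of all genes were called, no member passed through each day alone, and Hoxc4 had means of 4.91 and 4.67 CPM.

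From day 4.5 to day 5, 3 members were called in each of 4 types, and not all in 1 direction. In Late Posterior PSM, 3 of 4 members rose, where 6.88% of all genes were called. Hoxc9 went from 8.26, 32.3 and 41.2 (n = 12) to 43.8, 101.1 and 148.0 (n = 16), so the days did not overlap, with a log2 fold change of 1.86 ± 0.14 (SE; adjusted p = 8.49e-15, edgeR). Hoxc6 rose from 32.9 ± 14.5 to 75.1 ± 14.4 (SD; log2 fold change 1.07, adjusted p = 8.08e-09, edgeR), and Hoxc8 from 124.1 ± 29.9 to 168.7 ± 25.0 (0.43, adjusted p = 0.000208, edgeR). Hoxc4 was not called (0.27, adjusted p = 0.106, edgeR), and Hoxc5 had means of 8.09 and 8.80, as a description. Hoxc10 did not pass the filter, with means of 0.448 and 5.73 and a UMI in 12 of 16 day 5 gastruloids.

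In NMPs, 2 of 4 members rose and 1 fell, where 7.55% of all genes were called. Hoxc10, which passed the filter through day 5 (at day 4.5, only 7 of 13 gastruloids reached its level of 9.46 CPM) and is a description here, went from 4.28, 10.9 and 29.8 (n = 13) to 34.0, 83.7 and 189.1 (n = 16), and every day 5 gastruloid was above every day 4.5 gastruloid. Hoxc6 rose from a mean of 85.5 to 150.7 (0.74, adjusted p = 5.45e-10) and Hoxc9 from 111.8 to 163.8 (0.55, adjusted p = 6.21e-07, edgeR). Hoxc8, by contrast, fell from 305.6 to 256.4 (log2 fold change -0.33, adjusted p = 0.00536, edgeR). Hoxc4 was not called (0.25, adjusted p = 0.109, edgeR), and Hoxc5 had means of 10.9 and 15.5, also as a description.

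In Early Spinal Cord, 2 of 5 members rose and 1 fell, where 12.4% of all genes were called. Hoxc8 went from 216.5, 327.7 and 452.0 (n = 15) to 141.4, 175.8 and 205.9 (n = 16), and no day 5 gastruloid of MULTI-seq 3 reached the lowest of its day 4.5. The log2 fold change was -0.95 ± 0.071 (SE; adjusted p = 5.24e-13, edgeR). Hoxc10 lay at 2.53, 12.4 and 23.6 and then at 29.9, 85.0 and 199.0, with no overlap in MULTI-seq 3, as a description, since only 12 of 15 day 4.5 gastruloids reached the filter's level of 4.34 CPM, too few to pass alone. Hoxc6 rose from a mean of 101.8 to 134.4 (0.38, adjusted p = 7.22e-07, edgeR). Hoxc4 was at 45.4 and 53.0 (0.21, adjusted p = 0.0394, edgeR), and its call was lost without each lane while the log2 fold change stayed between 0.21 and 0.23. Hoxc9 was at 150.2 and 151.0, with a log2 fold change of -0.012 (adjusted p = 0.965), and Hoxc5 was not called (0.29, adjusted p = 0.139, edgeR).

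In Late Spinal Cord, 2 of 5 members rose and 1 fell, where 7.79% of all genes were called (n = 7 and 8). Hoxc4 rose from a mean of 22.5 to 39.1 with no overlap between days (log2 fold change 0.75, adjusted p = 0.000232, edgeR), and Hoxc9 rose from 97.4 to 159.2 (0.67, adjusted p = 0.00449, edgeR). Hoxc8 fell from 220.8 to 155.1 (-0.49, adjusted p = 0.000235, edgeR). Hoxc10 had a mean of 1.15 at day 4.5 and levels of 1.73, 6.93 and 81.6 (lowest, median and highest) at day 5, and 1 gastruloid set the last value. These levels are a description, since only 1 of 7 day 4.5 gastruloids reached the filter's level of 2.84 CPM, and without the gastruloid at 81.6 Hoxc10 did not pass the filter. Hoxc6 and Hoxc5 were not called (0.36 and -0.17, adjusted p = 0.117 and 0.525, edgeR).

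In Mature Somites, the segmented blocks that become vertebrae and muscle, levels were low on both days, and at day 4.5 no member had more than 39 UMIs over all 13 gastruloids. The 4 members that were fitted also passed the filter on low counts through day 5, so their values are a description with no test (14.0% of all genes were called). Hoxc8 went from a mean of 1.03 ± 0.98 (SD, n = 13), with a highest gastruloid at 3.16, to 3.55, 14.9 and 53.3 (lowest, median and highest, n = 16), and the days did not overlap. Mean levels at days 4.5 and 5 were 0.802 and 14.2 for Hoxc6, 0.537 and 4.04 for Hoxc5, and 1.41 and 7.07 for Hoxc4. Hoxc9 did not pass the filter, with a mean of 0.853 at day 4.5 and a median of 3.74 at day 5. In MULTI-seq 2, Late Posterior PSM could be fitted for day 4.5 against day 4 (n = 8 and 6), with 1.13% of all genes called. Hoxc8, the 1 member that each day alone would pass, had means of 50.3 and 81.7 and was not called (log2 fold change 0.61, unadjusted p = 0.00135, adjusted p = 0.0908, edgeR; adjusted p = 0.0998 by DESeq2).

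These day effects come from MULTI-seq 3 alone. Day 4.5 of MULTI-seq 2 and day 5 of MULTI-seq 1 are separate experiments, so their levels are set side by side with no test. For Hoxc8 in Early Spinal Cord, the lowest, median and highest levels were 210.4, 270.9 and 311.1 in the former (n = 11) and 165.2, 218.4 and 322.5 in the latter (n = 23), which overlap. In NMPs the Hoxc8 means were 237.4 (n = 8) and 262.6 (n = 22), the other way round from MULTI-seq 3, and in Late Spinal Cord they were 202.5 (n = 5) and 178.7 (n = 15). For Hoxc9 they were 11.8 and 92.2 in Late Posterior PSM, 54.0 and 153.2 in NMPs and 46.8 and 139.2 in Late Spinal Cord, and 75.1 and 163.1 in Early Spinal Cord, where MULTI-seq 3 had shown 150.2 and 151.0. Hoxc10 in Early Spinal Cord had a lowest, median and highest of 0, 1.49 and 55.6 at day 4.5 and 2.64, 66.9 and 215.8 at day 5, which overlap, and in NMPs it had 0, 1.25 and 3.46 and then 33.7, 72.4 and 140.8, which do not.

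**Figure D3:**
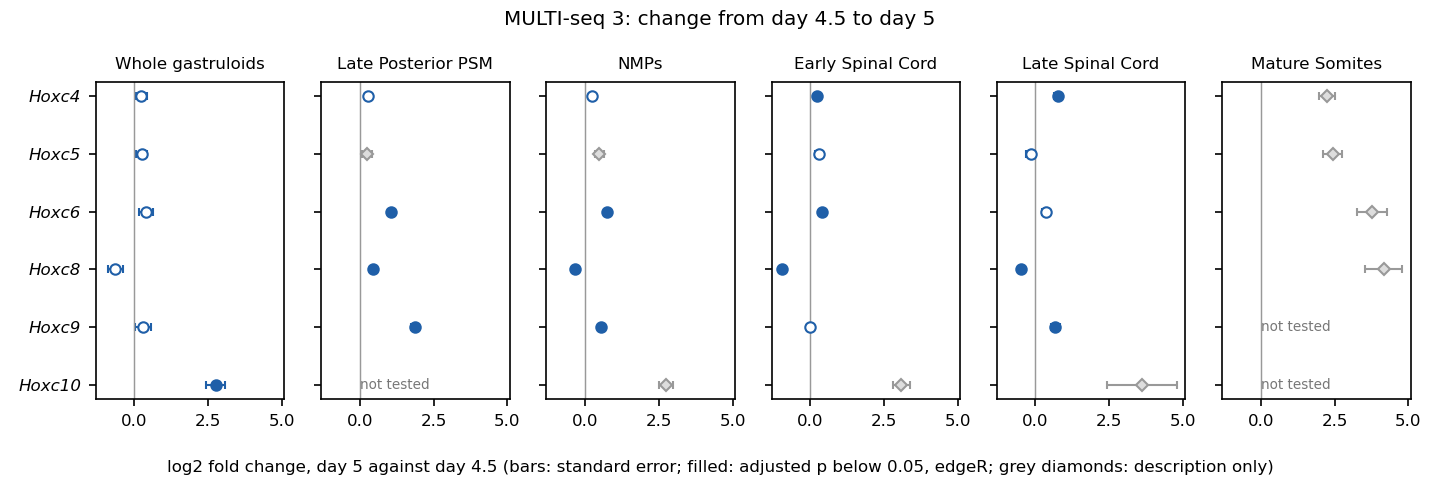
Log2 fold change of each tested HoxC member from day 4.5 to day 5 in whole gastruloids and in 5 cell types of MULTI-seq 3, with bars for the SE and filled points for an adjusted p under 0.05 (edgeR); grey diamonds are members that passed the filter only with both days together or through 1 day, and are a description. Hoxc8 is positive in Late Posterior PSM (0.43) and negative in NMPs (-0.33), Early Spinal Cord (-0.95) and Late Spinal Cord (-0.49). Its value in Mature Somites (4.16) is a description with no test.

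The difference in day effect between types was tested itself, by permuting the day over gastruloids that held both types, for 21 combinations of gene and type pair with Benjamini-Hochberg adjustment over them. In 13 of 21 the effects differed. The test was not planned and was run on members only, so no share over all genes stands beside that count. Pairs among Late Posterior PSM, NMPs and Early Spinal Cord share types, so their differences are not independent. The 1 combination of Hoxc10, and those of Hoxc5 with Late Posterior PSM or NMPs, were not among the 13. They are not read here, since these genes are descriptions in those types. The rise of Hoxc9 from day 4.5 to day 5 was larger in Late Posterior PSM than in NMPs by 1.35 on the log2 scale, and larger than in Early Spinal Cord by 1.84 (adjusted p = 4.2e-05 for both, permutation test, n = 28 and 27). For Hoxc8, the effect in Late Posterior PSM exceeded that in NMPs by 0.70 and that in Early Spinal Cord by 1.29 (adjusted p = 4.2e-05 for both, permutation test), and the effect in NMPs exceeded that in Early Spinal Cord by 0.58 (adjusted p = 0.00015, permutation test). Hoxc6 followed the same order, with differences of 0.43 (adjusted p = 0.0447) between Late Posterior PSM and NMPs and 0.39 (adjusted p = 0.00042, permutation test) between NMPs and Early Spinal Cord. Between Early and Late Spinal Cord, the effects differed for Hoxc4 (-0.57, adjusted p = 0.0160), Hoxc5 (0.42, adjusted p = 0.0269), Hoxc8 (-0.59, adjusted p = 0.00424) and Hoxc9 (-0.77, adjusted p = 0.00145) in an exact permutation test (n = 15).

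Set against its own day 5 level, each gene had its own course within a type. The courses cross from 1 pool to the next between days 4 and 4.5. In Late Posterior PSM (4, 14, 12 and 16 gastruloids at days 3.5, 4, 4.5 and 5), Hoxc4 was at 77%, 100% and 88% of its day 5 mean at days 3.5, 4 and 4.5. Hoxc6 was at 9.9%, 22.5% and 43.7%, Hoxc8 at 11.1%, 23.6% and 73.6%, and Hoxc9 at 5.9%, 5.3% and 26.5%. Hoxc10 stood at 7.8% at day 4.5. In Early Spinal Cord, Hoxc8 was above its day 5 mean throughout, at 159%, 200% and 190%, whereas Hoxc9 went through 41.8%, 58.2% and 99.5% and Hoxc10 through 7.0%, 11.5% and 11.5% (n = 10, 5 and 15). The day 3.5 values rest in part on 1 gastruloid with 12 such cells, and without it Hoxc10 was at 0.367% and Hoxc9 at 34.0% there. At day 4 the Hoxc10 mean in Early Spinal Cord was 11.7 ± 12.4 CPM (SD, n = 5), so no course from day 4 to day 4.5 is read from it. In NMPs at days 4 and 4.5, Hoxc9 was at 38.3% and 68.3% and Hoxc10 at 3.5% and 13.6%.

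**Figure D4:**
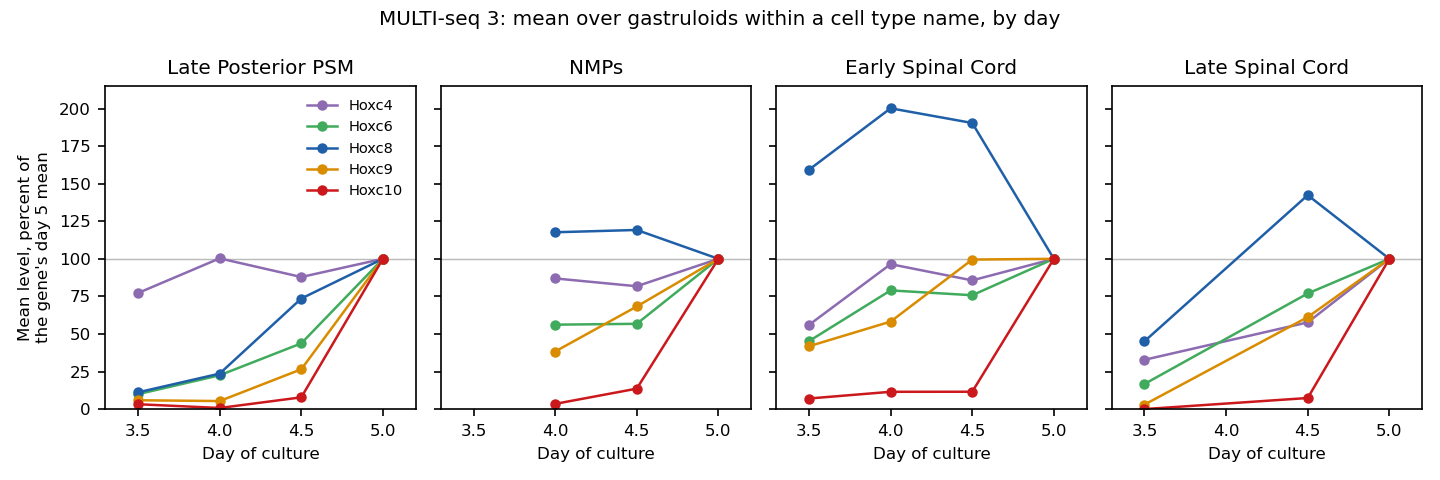
Mean level of 5 HoxC members in 4 cell types of MULTI-seq 3 as a percentage of the same gene's day 5 mean in that type, against day. In Late Posterior PSM at day 4.5, Hoxc8 is at 73.6%, Hoxc6 at 43.7%, Hoxc9 at 26.5% and Hoxc10 at 7.8%, while in Early Spinal Cord Hoxc8 lies above 100% on the earlier days.

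Hoxc10 and Hoxc8 stood in different proportions in the types of day 5. For each 100 UMIs of Hoxc8 in MULTI-seq 3 there were 53.0 UMIs of Hoxc10 in Early Spinal Cord and 38.2 in NMPs, against 7.18 in Late Spinal Cord, 3.35 in Late Posterior PSM and 0.794 in Mature Somites, with 26.1 over all types. Without the gastruloid at 81.6, 277 of the 749 Hoxc10 UMIs of Late Spinal Cord were left, and the proportion there was 2.90. Mature Endoderm gave 4.65 (6 Hoxc10 UMIs against 129 of Hoxc8) and Notochord 3.96 (4 against 101), on few UMIs. In MULTI-seq 3, Hoxc8 was at 168.7 in Late Posterior PSM and 174.7 in Early Spinal Cord, whereas in MULTI-seq 1 the means were 161.9 ± 29.0 (SD, n = 22) and 228.6 ± 37.4 (SD, n = 23), which differ by more than 1 SD. The proportion compares types, not the levels of the genes.

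**Figure D5:**
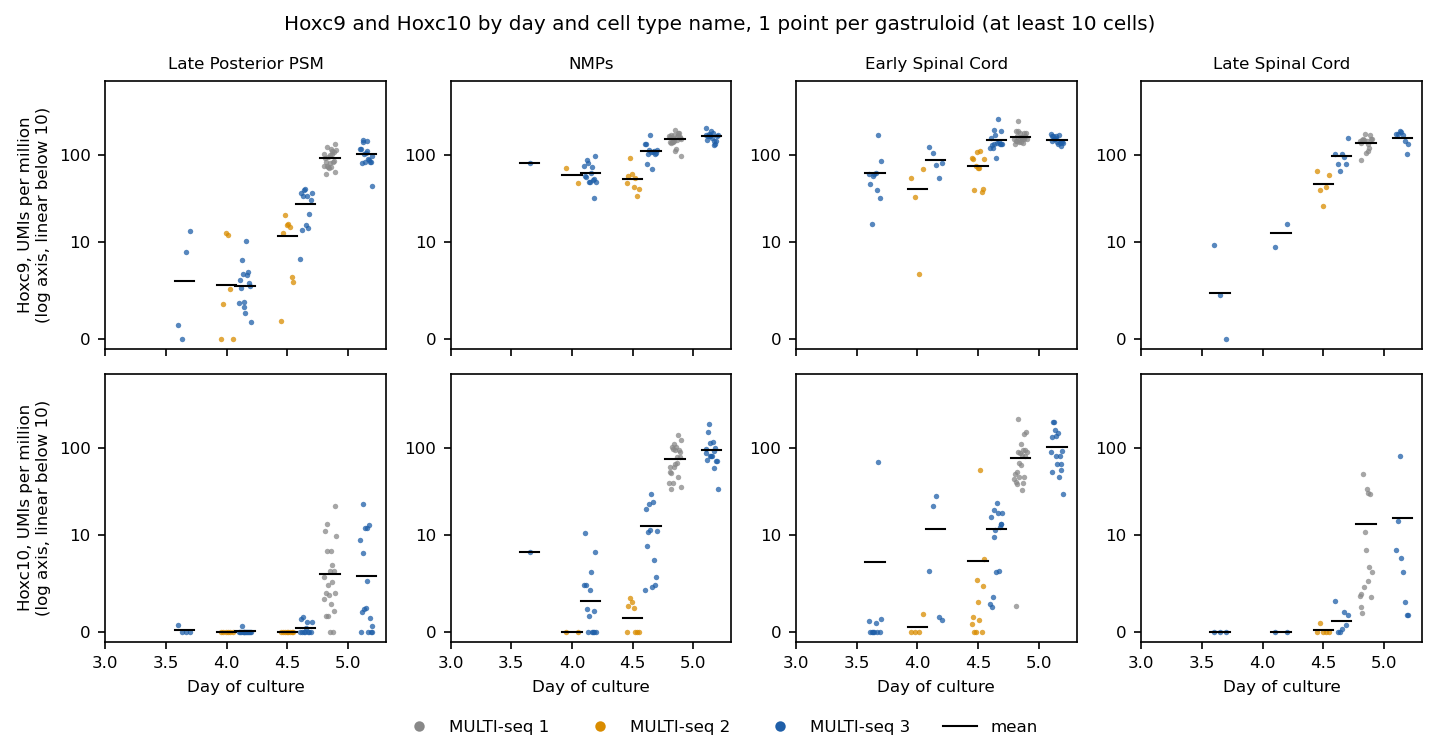
Hoxc9 (upper row) and Hoxc10 (lower row) levels per gastruloid in 4 cell types by day, in CPM (axis logarithmic, linear below 10), coloured by experiment, with bars as means. In MULTI-seq 3 every Hoxc10 level of day 5 lies above those of day 4.5 in NMPs and Early Spinal Cord, and 1 day 5 Late Spinal Cord gastruloid at 81.6 stands apart from the others.

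Types of the same gastruloid were compared to see whether a gastruloid high in a member in 1 type was high in another, on log2 CPM with 0.5 UMIs added and at least 20 cells of each type. Of 29 such relations, 1 passed adjustment: Hoxc9 in Late Posterior PSM and Mature Somites of MULTI-seq 3 at day 5 (Pearson r = 0.74, n = 15, permutation p = 0.00145, adjusted p = 0.0420). Spearman's rho was 0.54 (adjusted permutation p = 0.276). Leaving out the 2 gastruloids whose Late Posterior PSM level lay farthest from the middle gave an r of 0.51 (permutation p = 0.0741, n = 13). The relation was thus weaker without those 2, over a narrower range of levels. Hoxc9 was low in Mature Somites and did not pass the filter on low counts there. Without lane A it gave r = 0.46 (adjusted permutation p = 0.264) and without lane B r = 0.74 (adjusted permutation p = 0.0632). In MULTI-seq 1 the same relation gave r = 0.35 (adjusted permutation p = 0.526).

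At day 3, before the rise, Hoxc8 RNA sat in few cells. Of 12086 cells of day 3, 52 held at least 5 Hoxc8 UMIs, in lanes A (24 cells) and B (28 cells), and their median depth of 32378 UMIs was close to the 29331 of all. Named Early Spinal Cord were 19 of these, from a total of 28 cells of that name, with 15 in Caudal Epiblast (of 414) and 15 in Caudal Neurectoderm (of 393). The 16 with a gastruloid call came from 12 gastruloids. Hoxc10 was seen in 9 of the 28 day 3 cells named Early Spinal Cord. It was also seen in 8 of the 393 in Caudal Neurectoderm, 7 of the 414 in Caudal Epiblast and 8 of the 6944 in Primitive Streak. The origin of these cells was not tested. The lanes without calls gave Hoxc8 levels of 3.54 CPM (exact Poisson 95% interval 3.06 to 4.08) at day 3 and 82.8 at day 4 in the 10X lanes, and 96.1 and 96.7 in the pool of MULTI-seq 2. Hoxc10 in these 4 lanes was at 0.275, 0.506, 0.544 and 0.835.

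The 5′ members could only be counted. Hoxc11, which patterns sacral levels, was seen in 27 cells, 18 of which also held Hoxc10 and 19 Hoxc9. Early Spinal Cord held 11 of the 27 and NMPs 6, and the 21 cells with a gastruloid call were spread over 19 gastruloids, at most 2 in each. Hoxc12 was seen in 5 cells, 2 of them in Caudal Epiblast. Hoxc13, best known from the hair follicle and nail, had mean levels of 0.412, 0.221, 0.0751, 0.0166 and 0.0362 CPM from day 3 to day 5 of MULTI-seq 3. It was seen in 148 day 3 cells, and over all days the types with the highest numbers of its UMIs were Primitive Streak (122 UMIs in 114 cells) and Epiblast (45 UMIs in 36 cells). These levels rest on few UMIs, and no change is read from them.

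Across 68 units of cell type and day in MULTI-seq 3, the genes whose pattern was most like each member's, by Pearson's r of log levels over 9420 genes, came mostly from Hox clusters. These values are a description, since units share lanes and gastruloids. Hoxc8 was closest to Hoxc6 (r = 0.98) and Hoxc9 (r = 0.96), and Hoxc4 to Hoxaas3 (r = 0.95), an antisense RNA of the HoxA cluster, and Hoxc6 (r = 0.94). Hoxc9 was closest to Hoxc6 and Hoxc8 (r = 0.96 each) and Hoxa9 (r = 0.93). Hoxc10 was closest to Hoxa9 (r = 0.88), ahead of its neighbour Hoxc9 (r = 0.78), and its list also held Tpgs1 (r = 0.72) and Hoxa7 (r = 0.70). For Hoxc13, whose counts are sparse, the list began with Ddit3 (r = 0.78) and held no Hox gene, and it is no finding.

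The other Hox clusters, the caudal and posterior growth signals that act upstream of Hox genes, the TALE cofactors that bind DNA with Hox proteins, and the Polycomb and trithorax proteins that keep Hox clusters silent or active were read from fixed lists in whole gastruloids. Of 21 genes in the HoxA, HoxB and HoxD list that each day alone would pass from day 4.5 to day 5, 2 rose and 1 fell, namely Hoxd9 (0.89 on the log2 scale), Hoxa5 (0.62) and Hoxa2 (-0.31). Hoxa10, the HoxA counterpart of Hoxc10, had means of 1.47 and 7.77 CPM, as a description. From day 3.5 to day 4, 5 of 19 rose and 4 fell, among them Hoxd3 (1.19) and Hoxb9 (-1.08). In MULTI-seq 2 from day 4 to day 4.5, 1 of 15 rose, Hoxb3 (0.63), and none fell, where 7.36% of all genes were called.

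Of the upstream list, counted in the same way, 11 of 17 genes fell and 2 rose from day 3.5 to day 4. Cdx2, a caudal factor that binds Hox clusters, fell from 249.7 to 90.2 CPM (log2 fold change -1.49, adjusted p = 0.00018, edgeR), and Cdx1 (-2.44), Nkx1-2 (-2.21) and Wnt8a (-1.94) fell further. Over that step the median share of cells in Caudal Epiblast went from 15.9% to 4.45%, and its part in these whole-gastruloid falls was not tested. From day 4.5 to day 5, 4 of 13 fell and none rose, including Aldh1a2 (-1.14), an enzyme of retinoic acid synthesis, and Nr6a1 (-0.46), while Cdx2 was not called (142 and 112, -0.37, adjusted p = 0.154, edgeR). Gdf11, a ligand known to advance the shift from thoracic to lumbar Hox genes, was not called from day 4.5 to day 5 (0.10, adjusted p = 0.406, edgeR) or from day 3.5 to day 4 (-0.28, adjusted p = 0.0861). In MULTI-seq 2, 1 of 14 fell, T (-1.29), beside the same 7.36%. Of 9 TALE genes, 5 rose and 2 fell from day 3.5 to day 4, led by Meis1 (2.75), and 1 rose and 1 fell from day 4.5 to day 5. Of 16 Polycomb and trithorax genes, 11 rose and 2 fell from day 3.5 to day 4, among them Cbx8 (0.89) and Cbx7 (-1.12), and 0 were called from day 4.5 to day 5 by edgeR, with 3 at an unadjusted p under 0.05. These counts stand beside 60.4% and 13.5% of all genes called in the comparisons of MULTI-seq 3.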

How the data were processed

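MULTI-seq and 10X single-cell libraries of gastruloids were read as raw UMI counts per gene and cell, deposited by the authors as matrices whose file headers name Cell Ranger 6.0.0. The submitters' processing notes name Seurat (no version) and mm10. Cell types, days and gastruloids came from the deposited cell table, and how doublets were treated before deposit was not stated. UMIs were summed per gastruloid, whole and by type, over gastruloids with at least 30 cells (10 of a type), which left out 1 of 12 day 4 gastruloids of MULTI-seq 2. Technical lanes of a gastruloid were summed. Gastruloids of a day comparison share 1 cell line and pool, so p-values measure the spread between gastruloids of that pool.

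Comparisons used edgeR 4.0.16 in R 4.3.3 (quasi-likelihood test, TMM scaling, filterByExpr), fitted on all genes with Benjamini-Hochberg adjustment, and a call is an adjusted p under 0.05. On simulated counts for day 5 against day 4.5 (12298 genes), 93 of 100 genes changed by 1 and 100 of 100 changed by 2 on the log2 scale were recovered, with 12 false calls. Those counts were drawn with the dispersions that edgeR had fitted, from genes picked at random. No change under 1 was simulated, so the recovery of smaller changes was not tested. Alternatives were DESeq2 1.42.0, no filter, more cells, library totals, and lanes left out in turn. Descriptions used Python 3.11.15, numpy 2.4.6, pandas 2.3.3 and scipy 1.17.1. Permutation tests used 100000 resamples, or all of them in small groups, two-sided. The members and gene lists were chosen with earlier results of these data known. Every member is named. Of other lists, the genes named are at most the 4 with the largest change among those called, with Cdx2 and Gdf11 in any case.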

Additional observations from a re-analysis of the deposited data

Results flagged for a closer look

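In 8 of 33 groups of 4 to 10 gastruloids, the highest gastruloid lay farther from the next than Dixon's 95% limit allows. Chance flags about 1 group in 20 where groups are independent and values normal, so that rate is not set against these: 3 of the 8 come from the same gastruloid. In Early Spinal Cord of day 3.5 (MULTI-seq 3, n = 10), 1 gastruloid with 12 such cells was highest in Hoxc10, at 68.4 CPM with the next at 1.3, in Hoxc9, at 169.3 (next 85.8), and in Hoxc6, at 122.5 (next 65.3). A different gastruloid, with 10 cells, was highest in Hoxc5, at 17.9 (next 11.7). In Late Spinal Cord, the highest gastruloids stood at 156.5 in Hoxc9 at day 4.5 (next 103.6, n = 7), and at 134.8 in Hoxc6 (next 99.5) and 81.6 in Hoxc10 (next 14.6) at day 5 (n = 8). In Late Posterior PSM of MULTI-seq 2 at day 4 (n = 6), Hoxc4 reached 29.5 (next 18.0).

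The day 5 against day 4.5 effect differed between types of the same gastruloids in 13 of 21 combinations. That test was not planned and covered members only, with no share over all genes. The differences on the log2 scale, with permutation p-values adjusted over the 21, were as follows. Late Posterior PSM exceeded NMPs by 0.43 in Hoxc6, 0.70 in Hoxc8 and 1.35 in Hoxc9. It exceeded Early Spinal Cord by 0.80 in Hoxc6, 1.29 in Hoxc8 and 1.84 in Hoxc9. NMPs exceeded Early Spinal Cord by 0.39 in Hoxc6, 0.58 in Hoxc8 and 0.44 in Hoxc9. Early Spinal Cord less Late Spinal Cord gave -0.57 in Hoxc4, 0.42 in Hoxc5, -0.59 in Hoxc8 and -0.77 in Hoxc9. The largest adjusted p among them was 0.0447.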

How the results depend on the processing

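Of 523 values of a member under an alternative, 486 kept direction and side of the threshold, 10 lost a call, 16 gained one and 11 changed sign. The number of members called, members given only as descriptions included, moved as follows, and apart from settings with fewer genes or cells the cause was not tested. Whole gastruloids of day 4 against 3.5 gave 1 without the filter and 1 with at least 100 cells, and 0 to 1 with a lane left out. MULTI-seq 2 gave 0 to 2 with a lane left out, and MULTI-seq 3 against MULTI-seq 1 gave 4 with library totals alone. Early Posterior PSM gave 0 to 1 with a lane left out, Early Spinal Cord at day 4 gave 1 by DESeq2, Late Spinal Cord gave 5 without the filter, and Late Posterior PSM of MULTI-seq 2 gave 1 without the filter. Hoxc8 in Early Spinal Cord at day 4 was called in 1 of 11 settings, and Hoxc10 in Late Spinal Cord at day 5 in 2 of 4. With a lane left out, the smaller moves were 3 to 4 in Caudal Epiblast (from 3), 4 to 5 in NMPs (from 5), 3 in Early Spinal Cord at day 5 and 3 in Mature Somites (both from 4), and 2 to 3 between MULTI-seq 3 and 1 (from 2). With at least 50 cells a type, 0 relations were called. The log2 fold changes that changed sign were all uncalled. In MULTI-seq 3 against MULTI-seq 2 at day 4 they were Hoxc4 0.60, Hoxc8 0.27 and Hoxc9 0.21 with at least 100 cells, Hoxc4 0.046 and Hoxc9 0.070 with library totals alone, and Hoxc4 0.28 and Hoxc9 0.62 without lane 2 of MULTI-seq 2 (the lowest with a lane left out being -0.16 and -0.43). At day 5 between MULTI-seq 3 and 1, Hoxc10 was -0.092 with library totals alone. Hoxc9 of Early Spinal Cord was 0.0010 without the filter and -0.047 to 0.012 with a lane left out. The Hoxc9 relation in MULTI-seq 1 gave r from -0.16 (without lane 1) to 0.44 with a lane left out. With at least 20 cells, an alternative chosen after seeing the data, the Hoxc4 day effect of Late Posterior PSM differed by 0.016 from NMPs and by 0.087 from Early Spinal Cord. The values without the gastruloid highest in Hoxc10, which stand beside the Early and Late Spinal Cord results, were also added after seeing the data. Hoxc4 in Early Spinal Cord at day 5 lost its call without each lane (edgeR adjusted p = 0.0535, 0.0634 and 0.0923).

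Scaling by library totals changed the split of all genes called higher and lower from 3155 and 3173 to 5319 and 1554 between MULTI-seq 3 and 2 at day 4, and from 3518 and 3945 to 1581 and 7169 between MULTI-seq 3 and 1 at day 5. It gave 511 genes higher in MULTI-seq 2 in place of 335. Dropping the filter gave 523 genes lower in place of 874 at day 5 against 4.5, and 85 higher and 61 lower in place of 33 and 38 in Late Posterior PSM of MULTI-seq 2. Early Spinal Cord at day 4 could not be fitted with at least 20 cells or without lanes A or C, nor Late Posterior PSM of MULTI-seq 2 with at least 20 cells or without lane 3. No paired analysis was possible because a gastruloid belongs to a single day and the numbered lanes are technical splits of the same gastruloids. Depth limits Hoxc11, Hoxc12 and Hoxc13, which were counted in too few cells for a test.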
